A study of Mus musculus with 8 samples.

Results

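Bone morphogenetic protein (BMP) genes were followed across the cell types of the adult mouse heart in single-nucleus RNA libraries. The set comprised 10 of the 32285 genes listed in each count matrix, taken by symbol: the ligands Bmp2, Bmp4 and Bmp6, the secreted modulator Bmper, the type I receptors Bmpr1a, Bmpr1b and Acvrl1, the type II receptor Bmpr2, the co-receptor Eng and the intracellular inhibitor Smad6. All 10 symbols were found once in the gene list. Counts were summed over the nuclei of a cell type in a library, normalised to all unique molecular identifiers (UMIs) of that sum, and are given as CPM, with the mean and SD over libraries.

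BMP ligands are secreted dimers that bind a complex of type I and type II receptor kinases at the cell surface. The type I kinase then phosphorylates Smad1, Smad5 and Smad9, which enter the nucleus with Smad4 and switch on genes such as Id1, Id2 and Id3. In the heart the pathway is known for its part in forming the valves and chambers, and in vessels the arm made of Acvrl1, Eng and Bmpr2 is known from inherited vascular disease.

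The labels describe 8 libraries of nuclear RNA from adult hearts, 2 for each combination of sex and genotype. One genotype is non-transgenic (nTg, written as wild type in the labels) and the other carries a constitutively expressed cyclin A2 gene, Ccna2 (Tg). The promoter of the transgene and the age of the mice are not given in the sources used here, nor is it said whether each library came from a separate mouse. Where 5 values are listed for a gene, their order is nTg female 1, then both Tg females (1, 2), then both Tg males (1, 2). P-values measure only the spread between libraries, which may be technical. Of the 8 matrices, 5 had as many columns as their own barcode list and were retained. These are the first nTg female library and all 4 libraries labelled Tg. Each of the other 3 matrices labelled nTg repeated, value for value, the matrix of a Tg library of the same sex, and was not analysed here.

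The level of Ccna2 went against the labels of 2 of the retained libraries. It was at 444 CPM in cardiomyocytes of the library labelled nTg female 1 and at 0.468 CPM (6 UMIs) in those of the library labelled Tg female 1, while the other libraries had between 144 and 844 CPM. Libraries are therefore named by their label throughout. Total depth ran from 25045167 to 38593706 UMIs per library, and between 5773 and 8817 nuclei were kept. Pairs of libraries shared between 14 and 28 cell barcodes. Library Tg female 2 was the shallowest, with a median of 2105 UMIs per nucleus against 2637 to 3053 in the others. Its nuclei called fibroblast included 45.9% from a sub-cluster led by the cardiomyocyte genes Tnnc1, Myl3 and Myh6, against 12.8% to 15.4% in the other libraries.

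Nuclei were clustered without the 10 genes and without 55 further genes of the pathway, and clusters were named from marker lists. In 8 types every library had at least 50 nuclei, and these were tested: cardiomyocytes, fibroblasts, endothelial, endocardial and lymphatic endothelial cells, pericytes, smooth muscle cells and macrophages. Schwann, mesothelial and T or NK lymphocyte clusters were smaller and are described only. All listed markers of the 8 tested types had UMIs in every library, and their summed level was between 5.56 and 89.8 times that of all other nuclei of the library. A cluster of 3286 nuclei led by Acss3, Vit and Lvrn raised 10 of 10 fibroblast markers but also carried a mesothelial marker among its leading genes, and it stayed unnamed. It made up 10.1% of nuclei in nTg female 1, 7.41% in Tg female 1, 3.40% in Tg female 2, 12.8% in Tg male 1 and 14.6% in Tg male 2, and its values are given apart.

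The genes lie on GRCm38 (GENCODE annotation) as follows. The ligand genes are Bmp2 at chr2:133552159-133562885, Bmp4 at chr14:46383520-46390669 and Bmp6 at chr13:38345107-38500302, and Bmper is at chr9:23223076-23485200. The receptor genes are Bmpr1a at chr14:34410734-34503341, Bmpr1b at chr3:141837136-142169425, Acvrl1 at chr15:101128522-101145336 and Bmpr2 at chr1:59763400-59879014. Eng is at chr2:32646595-32682669 and Smad6 at chr9:63953076-64022059. Annotated genes on the opposite strand overlap Bmp4, Bmp6, Bmpr1a, Acvrl1 and Eng, and the strand setting of the counting is not given in the sources used here, so the counts of these 5 genes may include reads of their partners.

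The sequence just before the start of Eng and of Smad6 is shown because both genes peaked in the same cells, the endocardium, while only Eng carried AGGAAG. This is a longer form of the core bound by the ETS family of endothelial regulators. The shorter core GGAA, held within AGGAAG, was not counted and is also present in the Smad6 window. Both are from RefSeq on build GRCm38.p6, end at the base before the annotated start, and are written in the direction of the gene. Capitals mark AGGAAG on either strand (read as CTTCCT on the other).

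Eng, chr2:32646345-32646594, plus strand: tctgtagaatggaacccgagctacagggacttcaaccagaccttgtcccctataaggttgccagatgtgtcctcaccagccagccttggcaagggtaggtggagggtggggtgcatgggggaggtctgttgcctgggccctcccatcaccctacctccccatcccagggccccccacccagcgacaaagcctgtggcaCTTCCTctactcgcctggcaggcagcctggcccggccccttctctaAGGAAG
Smad6, chr9:64022060-64022309, minus strand: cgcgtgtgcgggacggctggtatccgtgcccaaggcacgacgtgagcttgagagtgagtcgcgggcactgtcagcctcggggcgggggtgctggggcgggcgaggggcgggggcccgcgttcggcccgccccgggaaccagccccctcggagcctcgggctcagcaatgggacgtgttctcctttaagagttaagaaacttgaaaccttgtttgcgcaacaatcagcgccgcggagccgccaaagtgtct

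Eng had 2 matches, which began 52 and 6 bases before the start, and Smad6 had 0. The motif was present in 29.5% of the 32851 promoter windows of the same 250 bases, and in 2 of the 8 members with a window in the table (Eng and Bmpr2). The palindrome GGCGCC, a GC-rich Smad element, was present in 9.59% of windows and in Bmpr1a and Bmpr2 among the members. A match is a description of these letters only.

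The genes fell into groups by the tested type with their highest mean. Bmp6 and the vascular genes Eng, Smad6 and Bmpr2 were highest in endocardial cells, Bmp4 and Bmper in fibroblasts, Acvrl1 in endothelial cells and Bmpr1a in cardiomyocytes. In CPM without TMM scaling, the libraries of the highest type overlapped with those of the next for Bmp6, Bmp2, Bmpr1a and Bmpr1b. Bmp2 was low in all 8 types. In the test of each type against the mean of the other types, 28 of 72 tests of the members were called higher and 22 lower (edgeR quasi-likelihood test, adjusted p under 0.05 and at least 2-fold). Over all genes and types 14.1% were called higher and 11.3% lower. Endocardial cells and fibroblasts each had 6 higher and 0 lower calls of the 9 members tested, with 12.2% and 13.1% of all genes called higher in them and 5.66% and 9.09% called lower. Cardiomyocytes had 3 higher and 5 lower calls, with 22.1% and 19.9% of all genes. Bmpr1b did not pass the filter on low counts and is the 1 member left out of this test. The contrast is between means of log2 values after TMM scaling, so a gene near 0 in several types can be called higher in a type whose CPM lies below the plain mean of the others, which was so for 7 of the 28 higher calls.

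**Figure D1:**
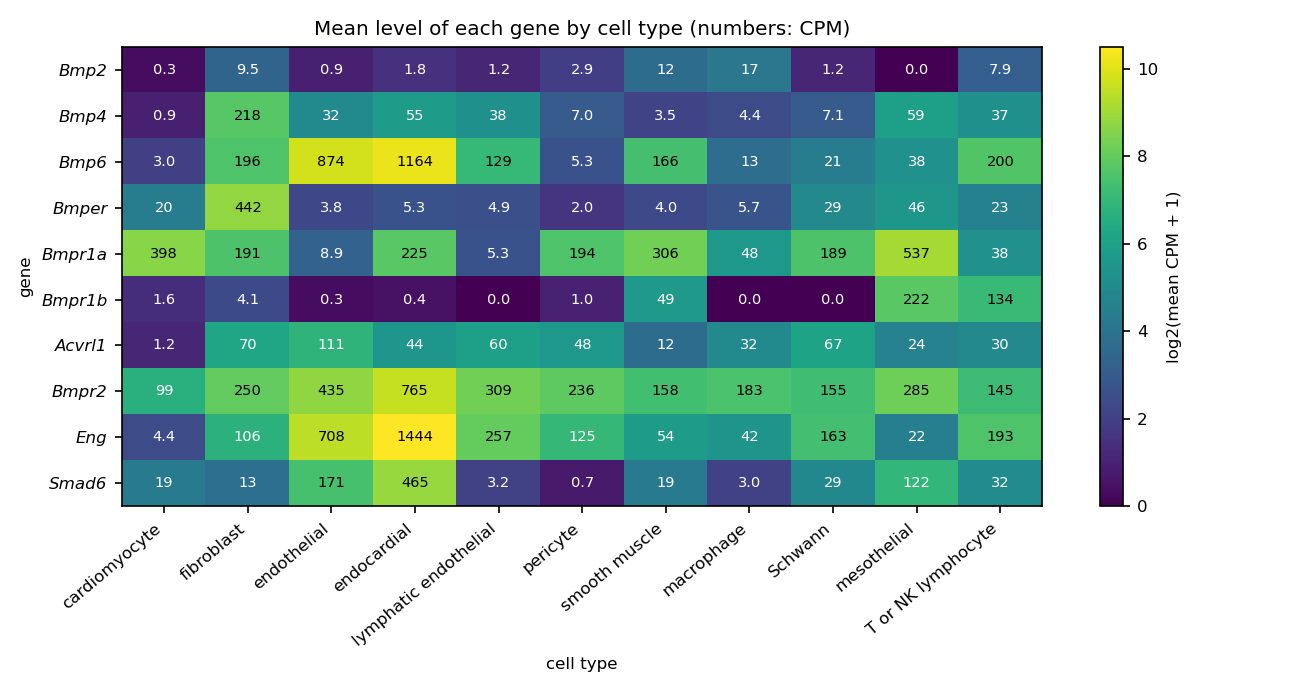
Mean level of the 10 genes (rows) in the 11 named cell types (columns) over 5 libraries, with the mean CPM printed in each cell and the colour giving log2(mean CPM + 1). Values compare along a row only, since CPM is not corrected for gene length. Bmp6 and Eng reach 1164 and 1444 CPM in endocardial cells, and Bmper reaches 442 CPM in fibroblasts.

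Bmp6, a ligand that liver endothelial cells release in the control of iron, was highest in endocardial and endothelial cells and far lower in the lymphatic endothelium. In endocardial cells it was at 908 CPM in nTg female 1, 1243 in Tg female 1, 1041 in Tg female 2, 1259.8 in Tg male 1 and 1367 in Tg male 2. In endothelial cells the values in the same order were 949, 796, 514, 939 and 1174 CPM. The 2 types overlapped, with means of 1164 ± 185 and 874 ± 242 CPM (SD, n = 5). Fibroblasts (196 ± 24.7 CPM), smooth muscle cells (166 ± 57.4) and lymphatic endothelial cells (129 ± 27.7) followed and overlapped in turn. All 5 libraries of each of these lay below all endothelial libraries, and above the 12.5 CPM of macrophages and the 2.96 CPM of cardiomyocytes. After each nucleus was thinned to 1000 UMIs, with shallower nuclei left out (343 of 7056 endothelial and 60 of 2154 pericyte nuclei), 42.0% of endothelial nuclei held a Bmp6 UMI and 0.308% of pericyte nuclei did, at similar median depths (1574.5 to 2207 and 1657 to 2604.5 UMIs). The unthinned shares were 52.7% and 0.751%. The log2 difference from the other types was 4.47 ± 0.11 in endocardial and 4.02 ± 0.11 in endothelial cells (SE; edgeR adjusted p 3.33e-30 and 3.21e-29). Fibroblasts (1.49) and smooth muscle cells (1.44) were also called higher, although their CPM was below the plain mean of the other types. Cardiomyocytes, pericytes and macrophages were called lower. The macrophage call, like those of Bmp4, Eng and Smad6 (-0.98, -0.97 and -0.79), was lost with types from Leiden resolution 0.5 (Bmp6 log2 difference -0.67).

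Bmp4, a ligand of heart and vessel development, was highest in fibroblasts. Fibroblasts had 218 CPM in nTg female 1, 212 in Tg female 1, 199.6 in Tg female 2, and 231 in both Tg male 1 and Tg male 2. These 5 values span a narrow range, and all were above every library of endocardial cells, the next type, at 54.5 ± 17.9 CPM. Lymphatic endothelial (37.8 ± 19.3) and endothelial cells (31.9 ± 3.80) overlapped with endocardial cells. Pericytes, macrophages, smooth muscle cells and cardiomyocytes were between 0.905 and 7.04 CPM, and all 4 were called lower. The fibroblast difference was 4.36 ± 0.10 on the log2 scale (edgeR adjusted p 4.29e-31). The other 3 types were called higher too, endocardial cells at 2.10 ± 0.17, lymphatic endothelial cells at 1.48 ± 0.23 and endothelial cells at 1.27 ± 0.14. In the latter pair the CPM was below the plain mean of the other types. In fibroblasts 19.0% of thinned nuclei held a Bmp4 UMI, against 0.124% of cardiomyocyte nuclei.

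Bmp2, the third ligand, gave 234 UMIs in fibroblasts and 101 in macrophages over the 5 libraries. Macrophages had 9.50 CPM in nTg female 1, 30.04 in Tg female 1, 18.0 in Tg female 2, 7.42 in Tg male 1 and 19.4 in Tg male 2. Smooth muscle cells (12.2 ± 7.63) and fibroblasts (9.48 ± 2.69) overlapped with them. The order of the 3 highest types of Bmp2 is therefore not resolved by these libraries. All 3 were called higher than the other types, with log2 differences of 2.88 ± 0.28, 2.62 ± 0.46 and 1.89 ± 0.24, and endothelial cells (0.920 CPM) and cardiomyocytes (0.276 CPM) were called lower.

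**Figure D2:**
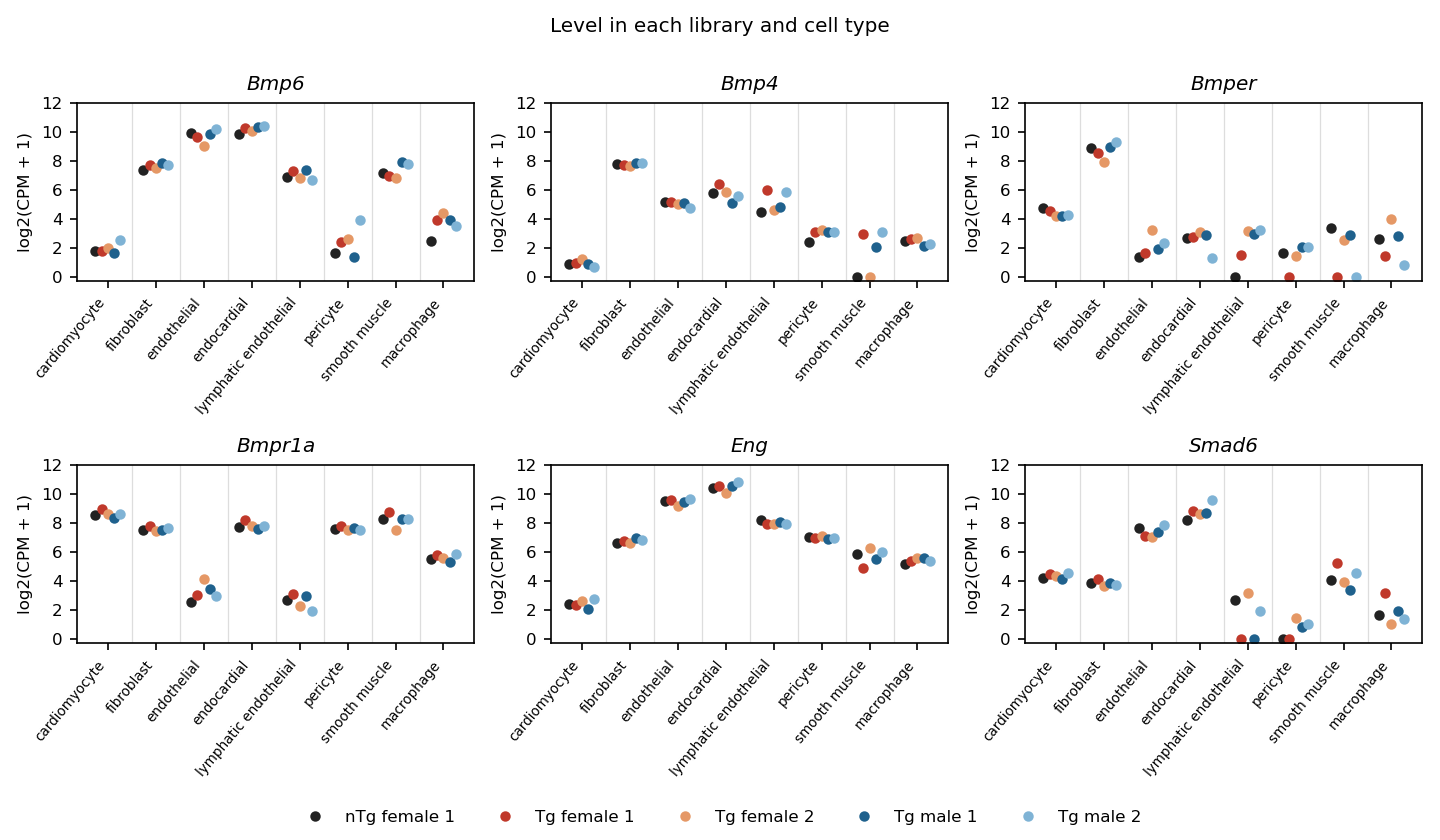
Levels of 6 genes as log2(CPM + 1) on the vertical axis, with 1 point per library in each of the 8 tested cell types. The 5 libraries of endothelial and endocardial cells overlap for Bmp6 and are apart for Eng and Smad6, and the fibroblast libraries of Bmp4 and Bmper lie above those of every other type.

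Bmper encodes a secreted protein that binds BMPs outside the cell and is known to act on vessel growth. It had the widest gap of the 10 genes between its highest and its next tested type. Fibroblasts had 473 CPM in nTg female 1, 365 in Tg female 1, 236 in Tg female 2, 504 in Tg male 1 and 632 in Tg male 2. The next type, cardiomyocytes, was at 20.2 ± 3.54 CPM, and the fibroblast mean was 21.9-fold higher in CPM without TMM scaling. The TMM factors were 0.648 to 0.708 in cardiomyocytes and 0.998 to 1.10 in fibroblasts, so the fold is smaller after scaling. The remaining 6 tested types lay between 2.00 and 5.70 CPM and overlapped with each other. In the test fibroblasts stood 6.31 ± 0.17 above the other types on the log2 scale (edgeR adjusted p 1.31e-29). Cardiomyocytes were also called higher (2.03 ± 0.24), and endothelial cells and pericytes lower. The unnamed cluster led by Acss3, Vit and Lvrn had 757 ± 241 CPM of Bmper, with a range of 446 to 1045, above the fibroblast mean, and 172 ± 18.6 CPM of Bmp4.

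Both genes varied over the fibroblast sub-clusters, which are named here by their leading genes. Bmper was at 741 ± 173 CPM in the sub-cluster led by Blnk, Kcnip1 and Rgs7, 503 ± 138 in that led by Necab1, Pde1c and 4930474M22Rik, and 262 ± 97.6 in that led by Dpp4, Efemp1 and Cd248. It was lowest in the sub-cluster led by Cilp, Ltbp2 and Postn, at 131 ± 67.6 CPM. Bmp4 had the same highest sub-cluster (326 ± 26.0 CPM), while its levels beside Dpp4 (125 ± 12.6) and beside Cilp (130 ± 16.2) overlapped. Bmp6 and Bmpr2 varied far less over the 5 sub-clusters, with means from 163 to 209.6 CPM and from 237 to 261 CPM. The sub-cluster led by Tnnc1, Myl3 and Myh6, with 2057 nuclei, had 403 ± 166 CPM of Bmper and 182 ± 7.65 of Bmp4, inside the range of the others. Sub-clusters were made from genes other than these members, and their differences are given as values with no test.

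**Figure D3:**
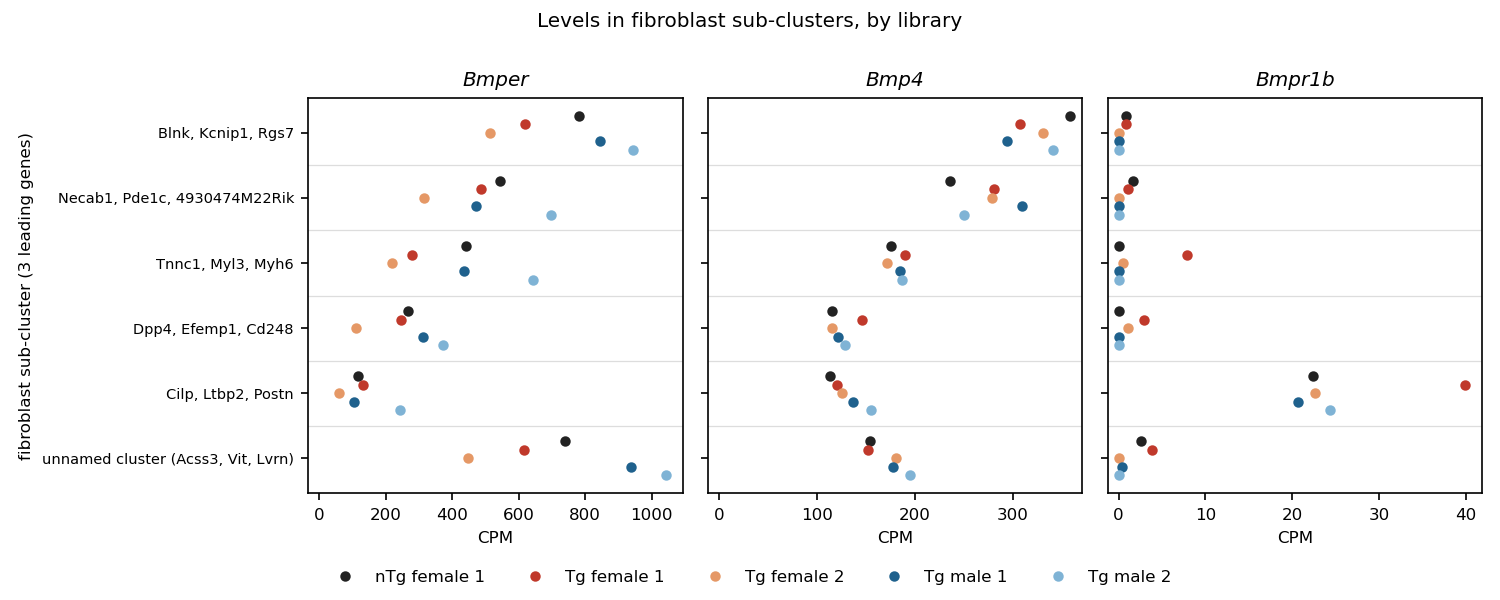
Levels in CPM (horizontal axes) of Bmper, Bmp4 and Bmpr1b in the 5 fibroblast sub-clusters and in the unnamed cluster that scored as fibroblast, with 1 point per library. Bmper runs from 131 to 741 CPM over the sub-cluster means, and Bmpr1b stands apart in the sub-cluster led by Cilp, Ltbp2 and Postn.

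Among the type I receptors, Bmpr1a, the broadly used BMP receptor kinase of heart muscle, was at its highest in cardiomyocytes and low in both blood and lymphatic endothelium. Cardiomyocytes had 374, 507, 397, 327 and 386 CPM in the order of libraries given above. With TMM-scaled library sizes their mean was 599 CPM in place of 398 ± 66.2. Smooth muscle cells overlapped with cardiomyocytes in CPM without TMM scaling, at 306 ± 86.0 CPM. The TMM factors were 0.648 to 0.708 in cardiomyocytes and 0.994 to 1.08 in smooth muscle cells. Divided by these factors, all cardiomyocyte libraries lay above all smooth muscle ones. In unscaled CPM, endocardial cells (225 ± 37.7), pericytes (194 ± 14.9) and fibroblasts (190.5 ± 16.4) followed. Macrophages were at 47.7 ± 7.48 CPM. Endothelial cells had 4.78, 7.01, 16.4, 9.64 and 6.63 CPM, and lymphatic endothelial cells had 5.25 ± 1.96 CPM. The highest endothelial library, Tg female 2, was below every library of the first 6 types. Endocardial and endothelial cells, which overlapped in Bmp6, lay on opposite sides of the other types for Bmpr1a, with log2 differences of 1.52 ± 0.11 and -3.82 ± 0.21 (edgeR adjusted p 5.44e-15 and 6.88e-19). In Tg female 2, 5.78% of endothelial nuclei were from a sub-cluster led by genes that include cardiomyocyte ones, against 1.45% to 3.75% in the other libraries. The summed cardiomyocyte markers of its endothelial nuclei were at 2381 CPM, within the 1946 to 2697 CPM of the others. Their part in the Bmpr1a value was not tested. Macrophages were called lower at -1.01 ± 0.15, a call that was lost without Tg female 1 (-0.99) or without Tg male 1 (-0.92). The small mesothelial cluster (105 nuclei) had 537 ± 123 CPM of Bmpr1a.

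Acvrl1, the type I receptor that binds the circulating ligands Bmp9 and Bmp10 in vessels, reversed the order of Bmpr1a between endothelial cells and cardiomyocytes. Endothelial cells had 129, 114, 80.9, 113 and 120.1 CPM in that order, all above every fibroblast library (70.2 ± 3.64). Lymphatic endothelial cells (59.5 ± 18.1) overlapped with both fibroblasts and pericytes (48.0 ± 5.20), and endocardial cells were at 44.1 ± 3.88 CPM. Cardiomyocytes had 1.17 ± 0.59 CPM (52 UMIs in 6081 nuclei). The endothelial difference was 2.19 ± 0.10 on the log2 scale (edgeR adjusted p 1.81e-22), and fibroblasts (1.34) and lymphatic endothelial cells (1.10) were also called higher. The lymphatic call was lost without library Tg female 1 (log2 difference 0.94). Endocardial cells, where Eng and Bmpr2 peaked, were not called for Acvrl1 at the 2-fold threshold (0.64 ± 0.15).

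Bmpr1b, the third type I receptor of the set, was near 0 in the large classes and appeared in few nuclei. Smooth muscle cells of Tg female 1 had 244 CPM (142 UMIs in 32 of 191 nuclei, exact Poisson 95% interval 205 to 287 CPM, counting error only). The other 4 libraries of smooth muscle had 3.05, 0, 0 and 0 CPM, so that type's mean rests on 1 library. Within fibroblasts Bmpr1b stood out in the sub-cluster led by Cilp, Ltbp2 and Postn, at 22.4, 39.8, 22.6, 20.6 and 24.4 CPM in the order of libraries given above. All 5 of these values exceeded the highest library of any other fibroblast sub-cluster, 7.93 CPM. The mesothelial cluster held 85 Bmpr1b UMIs, at 222 CPM on average, and was at 0 only in Tg male 1, which had 3 such nuclei. In the T or NK lymphocyte cluster 30 UMIs came from 5 nuclei of the 2 male libraries.

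Bmpr2, the type II receptor that pairs with each of these kinases, was called in fewer types than any other member tested. Its 1 call was in the endocardium, where it was at 766, 736, 596, 864 and 863 CPM in the order of libraries given above. Endothelial cells had 435 ± 58.7 CPM, and no endothelial library reached the lowest endocardial one. From endothelial cells down to cardiomyocytes (98.9 ± 19.1 CPM) each type overlapped with its neighbour in the order. The endocardial difference was 1.71 ± 0.07 on the log2 scale (edgeR adjusted p 4.60e-23). The cardiomyocyte difference, -0.96 ± 0.08, was past the p threshold and short of 2-fold.

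Eng encodes endoglin, a co-receptor of Acvrl1 in endothelial cells. In endocardial cells it was at 1374, 1479.9, 1092, 1482 and 1793 CPM in that order. Endothelial cells had 708 ± 82.6 CPM, lymphatic endothelial cells 257 ± 24.4 and pericytes 125 ± 6.16. The 3 highest types were fully separate from each other and from pericytes in all 5 libraries. Fibroblasts (106 ± 10.8 CPM) overlapped with pericytes, and cardiomyocytes were lowest, at 4.43 ± 0.92 CPM. The log2 difference was 4.05 ± 0.07 in endocardial, 2.91 ± 0.08 in endothelial and 1.13 ± 0.11 in lymphatic endothelial cells (edgeR adjusted p 7.88e-35, 5.51e-30 and 9.89e-12). The lymphatic call fell just under 2-fold with types from Leiden resolution 0.5 (0.995). After thinning, 69.7% of endocardial and 48.1% of endothelial nuclei held an Eng UMI, against 0.460% of cardiomyocyte nuclei.

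Smad6, an inhibitor that BMP signalling itself induces, separated endocardial and endothelial cells from the lymphatic endothelium. Endocardial cells had 299, 452, 399, 407 and 771 CPM in the order of libraries given above. Endothelial cells had 198, 133, 126, 166 and 232 CPM, below every endocardial library. Lymphatic endothelial cells gave 5 UMIs in all (3.18 ± 3.40 CPM) and pericytes 3. Smooth muscle cells (19.5 ± 10.4), cardiomyocytes (19.3 ± 2.57) and fibroblasts (13.3 ± 1.94) were in between. The test gave log2 differences of 5.54 ± 0.14 in endocardial and 3.96 ± 0.15 in endothelial cells, and of -3.07 ± 0.64 in lymphatic endothelial cells (edgeR adjusted p 8.09e-30, 1.68e-24 and 1.61e-04). Cardiomyocytes were called higher at 1.03 ± 0.20. That call was lost with RLE size factors (0.97), at Leiden resolution 0.5 (0.72) and with the unnamed fibroblast-scoring cluster added (0.98).

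Within the endothelial class, Bmp6 and Smad6 varied widely over the sub-clusters, and the arterial-like nuclei were lowest in Bmp6 and highest in Smad6. Bmp6 was highest in the sub-cluster led by Car4, Mylip and Cyp4b1, at 1609.9, 1589, 1021, 1563 and 2245 CPM in the order of libraries given above. It was lowest in the sub-cluster led by Fbln5, Prom1 and Mannr, at 32.8, 53.5, 122.5, 62.4 and 70.7 CPM. This last sub-cluster raised 8 of 8 arterial markers and is called arterial-like. Every library thus had less Bmp6 in the arterial-like nuclei, 1605 ± 434 against 68.4 ± 33.4 CPM on average. Smad6 was at 744 ± 173 CPM in the arterial-like sub-cluster and at 54.5 ± 14.7 in the Car4 one, and no library overlapped. The 2 genes were not opposed throughout. The lowest Smad6 levels, 20.4 to 23.6 CPM, were in the sub-clusters led by Lhx6, by Kit and by Col13a1, the last of which raised 3 venous markers.

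The sub-cluster led by Cytl1, Esr1 and Gkn3 raised 5 arterial and 3 venous markers and shared features of both ends. Smad6 was at 477 ± 177 CPM there, and Bmpr2 at 751 ± 123 CPM, its highest mean in the class. The Bmpr2 libraries (574 to 901 CPM) overlapped with those of the Col13a1 sub-cluster (435 to 679 CPM). Bmp6 in the Cytl1 sub-cluster ranged from 81.7 CPM in nTg female 1 to 796 CPM in Tg male 1. Bmp4 also had its highest mean there (96.5 ± 34.0 CPM, 89 UMIs), against 17.0 ± 3.77 CPM in the Car4 sub-cluster. Its libraries, too, overlapped with the Col13a1 ones. Acvrl1 was highest in the arterial-like sub-cluster (209 ± 37.2 CPM), which was above the Cytl1 one (178 ± 44.0) in 5 of 5 libraries. Eng varied less, from 442 to 952 CPM, and was highest in the sub-cluster led by Btnl9, Unc5b and Lrrc3b. A sub-cluster of 227 nuclei led by Cox6a2, Cox6c and Cox4i1 also held the cardiomyocyte genes Tnnc1 and Myl3 among its leading genes, and had 1022 ± 426 CPM of Bmp6 and 50.1 ± 11.97 of Smad6. Leaving out this sub-cluster and the fibroblast one led by Tnnc1 changed none of the 50 cell-type calls.

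**Figure D4:**
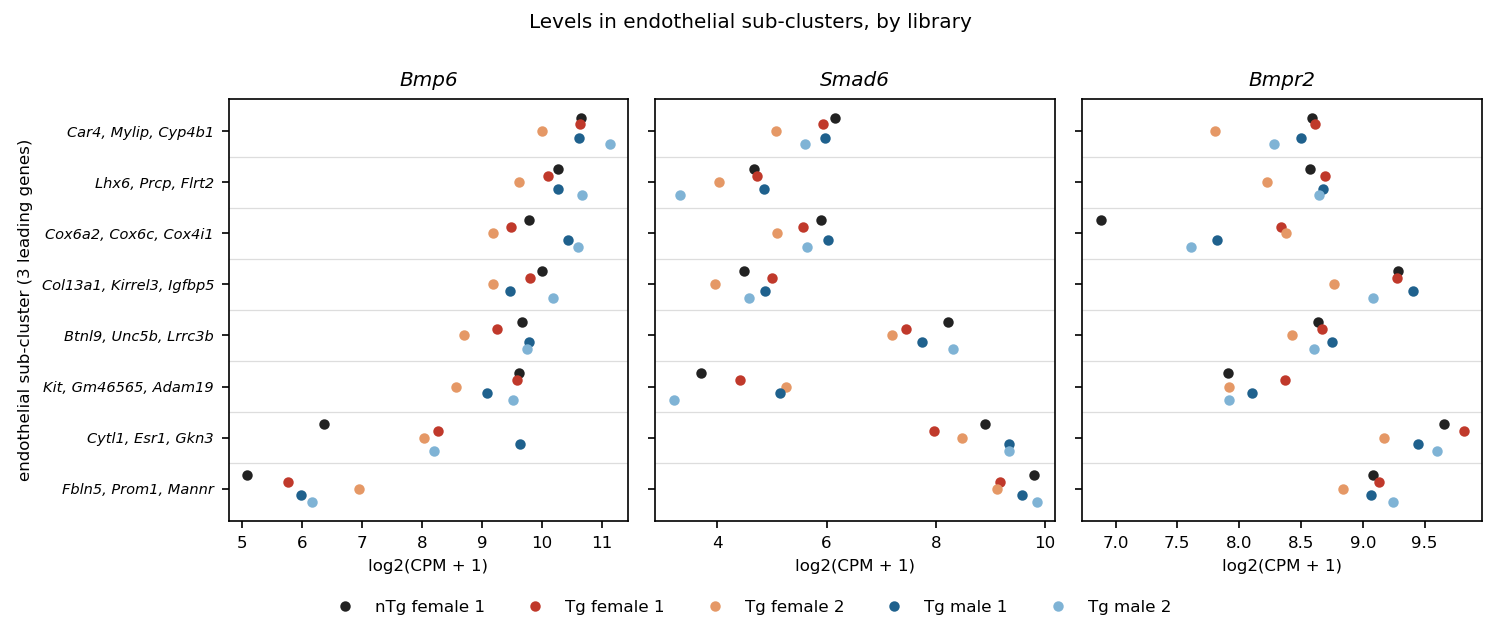
Levels as log2(CPM + 1) (horizontal axes) of Bmp6, Smad6 and Bmpr2 in the 8 endothelial sub-clusters, ordered by mean Bmp6, with 1 point per library. From top to bottom Bmp6 falls from a mean of 1605 to 68.4 CPM, and the 2 lowest rows hold the highest Smad6 values in all 5 libraries.

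Of the 55 other genes of the pathway list, 34 were tested between types, and 57 of their 272 tests were called higher and 48 lower. These are 21.0% and 17.6% of the tests, against the 14.1% and 11.3% of all genes. The list's median log2 difference was -0.07 over all types, and the median of all genes lay between -0.09 and 0.00 in each type. The targets Id1 and Id3 were highest in endothelial and endocardial cells. Id1 was at 288 ± 40.4 CPM and Id3 at 283 ± 47.9 in endothelial cells, and at 180.2 ± 36.2 and 273 ± 79.2 CPM in endocardial cells, all called higher. Id2 was called higher in endocardial (53.3 ± 24.2 CPM) and smooth muscle cells (48.9 ± 18.6), and Atoh8, a target known in endothelium, in endothelial (22.0 ± 7.05), endocardial and cardiomyocyte sums. Smad7, the other inhibitory Smad, was called higher in endocardial and endothelial cells, with 347 ± 128 CPM in endocardial and 289 ± 63.1 in endothelial cells. The type I receptor Acvr1 was called higher in endocardial cells alone (412 ± 79.3 CPM, log2 difference 1.99 ± 0.09).

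Secreted modulators and co-receptors were called higher in most of the other types. The roles of the list place Bambi, a decoy receptor, among the co-receptors and Crim1, a membrane protein, among the secreted modulators. By these roles, all 11 tested modulators, all 6 co-receptors and all 4 tested targets were called higher in at least 1 type. So were 1 of 2 tested ligands, 1 of 3 receptors, 2 of 3 signal transducers and 2 of 5 intracellular inhibitors. The share of all genes called higher in at least 1 type was not counted, so these counts have no background. Fibroblasts had 10 calls, among them Chrd, an extracellular BMP antagonist (94.7 ± 27.0 CPM, log2 difference 6.06 ± 0.14), the protease Bmp1, which cleaves Chrd (155 ± 15.2 CPM), the related protease Tll2 (129.99 ± 73.5 CPM), and the co-receptors Rgma (270.1 ± 10.1), Rgmb (125 ± 20.7) and Tgfbr3 (813 ± 211). Fstl1, Kcp, Nbl1 and Vwc2 completed them. Lymphatic endothelial cells had 852 ± 176 CPM of Tll1, another protease of that family (log2 difference 8.54 ± 0.12) and the highest Smad1 (469 ± 75.2), with Smad5, Fstl1, Crim1, Nbl1 and Bambi also called. In cardiomyocytes the co-receptors Hjv (34.8 ± 6.62 CPM), Neo1 (273 ± 34.7) and Tgfbr3, the decoy receptor Bambi and the modulator Vwc2 (66.3 ± 25.7) were called with Atoh8. The ligand Bmp5 marked the mural cells, with 166 ± 48.9 CPM in pericytes and 76.6 ± 29.2 in smooth muscle cells, and log2 differences of 7.37 ± 0.20 and 6.21 ± 0.33. Pericytes also had higher Kcp, Rgma and Fstl1. Smooth muscle cells had higher Crim1 (1040.3 ± 138 CPM), Neo1, Fstl1, Id1, Id3, Rgma, Smurf1, Twsg1, Sost and Vwc2. The Sost and Vwc2 calls rest on library Tg female 1, with 13 and 17 UMIs there and 0 in the other 4 libraries, the same library that held the Bmpr1b signal. Endocardial cells had higher Crim1 (881 ± 109.5 CPM), Fstl1, Nbl1, Tll1, Sost and Bambi, and endothelial cells higher Tll1 and Smad1. Macrophages had 0 higher and 15 lower calls of 34, or 44.1% lower, and of all genes 16.3% were called higher and 17% lower in macrophages.

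Sex was compared in the 4 libraries labelled Tg, 2 female and 2 male. None of the 53 tests of the members was called (edgeR quasi-likelihood test, adjusted p under 0.05), with 5 at an unadjusted p under 0.05, and 0.178% of all tests were called. DESeq2 called 1, Bmper in fibroblasts. That gene gave the lowest p: Bmper in fibroblasts was at 365 and 236 CPM in the female libraries and 504 and 632 in the male ones, a log2 difference of -0.99 ± 0.25 (edgeR adjusted p 0.198), and the nTg female 1 library was at 473 CPM. The make-up of the class also differed: the sub-cluster led by Blnk, Kcnip1 and Rgs7, the highest in Bmper, was 16.8% and 9.43% of fibroblasts in the female libraries and 30.2% and 32.7% in the male ones, and the sub-cluster led by Tnnc1, Myl3 and Myh6, cardiomyocyte genes, was 45.9% of fibroblasts in Tg female 2 and 12.8% to 15.4% in the other libraries. Within sub-clusters the females were lower, with no overlap, in 3 of 5 (that one included) and in the unnamed fibroblast-scoring cluster, and overlapped with the males in the other 2. The part of the make-up in the difference was not tested. Endothelial Smad6 (133 and 126 against 166 and 232 CPM, log2 -0.69 ± 0.20, edgeR adjusted p 0.298) and Bmp6 (796 and 514 against 939 and 1174 CPM, log2 -0.75 ± 0.26, edgeR adjusted p 0.380) were also under an unadjusted p of 0.05. The sub-cluster led by Car4, the highest in Bmp6, was 14.6% and 16.2% of endothelial nuclei in the female libraries and 25.9% and 26.3% in the male ones, and that led by Kit was 13.6% and 17.4% against 7.82% and 6.45%. Within the 8 endothelial sub-clusters the females were lower, with no overlap, in 3 for Bmp6 and in 4 for Smad6, and overlapped with the males in the rest. The part of the sub-cluster shares in these differences was not tested either. These sub-cluster counts, and that of Bmper, have no share of all genes beside them. Between whole types, female and male libraries did not overlap in 37.2% of all tests, in either direction. Smooth muscle Bmp6 (-0.89 ± 0.30) and endocardial Bmp4 (0.79 ± 0.31) were the others under 0.05 before adjustment, with edgeR adjusted p of 0.533 and 0.580. Female and male libraries did not overlap in 16 of the 53 member tests (30.2%), against 37.2% of all tests. A p above the threshold with 2 libraries a group does not show that the sexes are alike.

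The result of the sex comparison rested on single libraries. Without Tg female 1, whose Ccna2 level goes against its label, 6 tests were called, all lower in the remaining female library, Tg female 2: endothelial Smad6, Bmp6 and Acvrl1, fibroblast Bmper and Bmpr2, and lymphatic endothelial Bmpr2. Without Tg female 2 the calls were fibroblast Bmper (log2 -0.70, edgeR adjusted p 0.0193) and smooth muscle Bmpr1b, which is the Tg female 1 signal described above. Each of the 2 fits without a male library called 1 test, that same Bmpr1b signal. In these fits 1 arm has a single library, which is assumed to vary like the others. Among the other pathway genes 0 of 206 sex tests were called, with 30 at an unadjusted p under 0.05. The counts at an unadjusted p, here and for the members, have no share of all tests beside them. They are therefore not read as an excess.

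**Figure D5:**
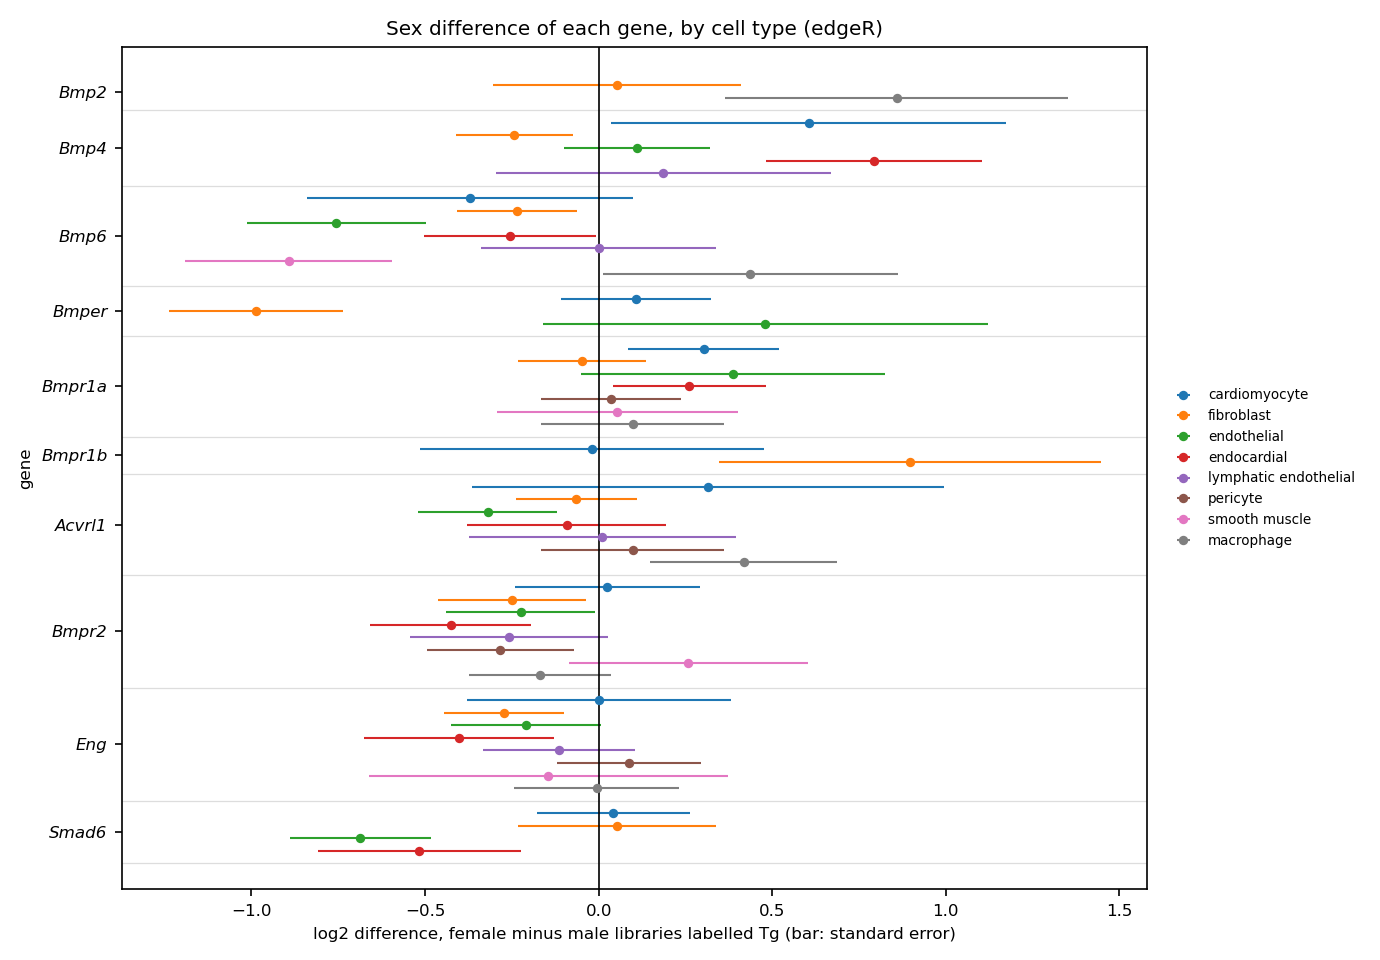
Log2 difference between female and male libraries labelled Tg (horizontal axis, edgeR) for each member in each cell type in which it passed the filter, with bars of 1 standard error. Bmper in fibroblasts lies furthest below 0, at -0.99, and none of the 53 differences passed the adjusted threshold.

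The sex difference of each type was also tested against that of the other types, in 1 fit over the 4 libraries labelled Tg. Of the 72 member tests 0 were called and 0 had an unadjusted p under 0.05 (edgeR), DESeq2 called 0, and over all genes 0.0938% were called. Sex differences of the members that appear in 1 type and not another are therefore not shown to differ. Of 296 such tests of the other pathway genes 1 was called, and 27 had an unadjusted p under 0.05 (edgeR). The count of 27 likewise has no share of all tests beside it. The call was Crim1, a membrane protein that binds BMPs, in cardiomyocytes (0.75 ± 0.14, edgeR adjusted p 0.0107). The adjustment was over the genes of each type's contrast, not over the types.

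The library labelled nTg female 1 has no replicate, so it is set beside the 4 libraries labelled Tg as values. Of 49 pairs of a member and a type with at least 10 CPM in either, 3 were at least 2-fold from the Tg mean and outside the Tg range, and over all genes and types 5.23% were. Bmp6 in macrophages was at 4.38 CPM against 10.1 to 20.1 CPM. Acvrl1 in smooth muscle cells was at 6.11 CPM against 11.3 to 19.0, and Bmp2 there was at 21.4 CPM against 3.75 to 15.6. All 3 rest on few UMIs, with 75 Bmp6 UMIs in all macrophages and 20 Acvrl1 and 23 Bmp2 UMIs in all smooth muscle nuclei. Of the 49 pairs, 13 lay outside the Tg range, most of them less than 2-fold from the Tg mean. The share of all genes outside the Tg range was not counted, so this count does not set the members apart. In the types where the members were highest, nTg female 1 was above the Tg range for endothelial Acvrl1 (129 against 80.9 to 120.1 CPM) and below the Tg range for endocardial Smad6 (299 against 399 to 771 CPM) and Bmp6 (908 against 1041 to 1367 CPM), each less than 2-fold from the Tg mean. Since Ccna2 goes against the label of this library and of Tg female 1, these values compare libraries, not genotypes. Without Tg male 1 the count was 6.

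The genes most alike in pattern were found by Pearson's r of log2(CPM + 1) over the 40 sums of type and library, which share libraries and depth. Bmp6 was most like Csgalnact1 (r = 0.95), Lims2 (0.91) and 4930579J19Rik (0.90), the last of which lies on the opposite strand of the Bmp6 gene. Bmp4 was most like Mtch1 (0.93), Gm15222 (0.91) and Gm15675 (0.91), and Gm15222 overlaps Bmp4 on the opposite strand. Bmper was most like 4930474M22Rik, Gm43189 and Gm32569 (0.89 to 0.92), and Bmp2 like Cacna1d, Fmn2 and Alms1 (0.80 to 0.85). Among receptors, Bmpr2 was most like Rdx (0.94), Eng (0.92) and Cytl1 (0.91), Acvrl1 like Tcf4, Lasp1 and H2-T22 (0.94 to 0.96), and Bmpr1a like Magi2, Gata4 and Sobp (0.87 to 0.90). Bmpr1b had the weakest matches, Prdm6, Mrgprf and Gm48053 (0.66 to 0.76). Eng was most like Adcy4 (0.96), Rnf215 and Jcad (both 0.93), and Smad6 was most like Gm28609 (0.89), Smad7 (0.86) and Ocln (0.86).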

How the data were processed

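Single-nucleus RNA libraries of adult mouse hearts were deposited by the authors as matrices of UMI counts per gene and nucleus, made with Cell Ranger 7.0.0 per the file headers and with build mm10 per the submitters' processing notes. Whether intron reads were counted, and the strand setting, are not given in the sources used here. The members and gene lists were chosen with earlier results of these data known.

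Of the 8 labelled libraries, 5 were analysed, since 3 matrices repeated another library's counts and had a different number of columns from their own barcode list. Nuclei with at least 200 genes and at most 5% mitochondrial UMIs were kept, and doublets were removed with Scrublet (7.63% to 9.68% per library). Its threshold failed in Tg female 2, where the highest-scoring 8.86% were removed. This left 34400 of 44839 barcodes. Clustering (scanpy 1.11.5; 2000 variable genes without the pathway's genes, 30 components, 15 neighbours, Leiden resolution 1, and 0.5 for sub-clusters) was followed by naming from marker lists, and 4558 nuclei stayed unnamed.

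Counts were summed per library and type (CPM) and tested with edgeR 4.0.16 (R 4.3.3; quasi-likelihood, TMM, filterByExpr, Benjamini-Hochberg adjustment over all genes, adjusted p under 0.05). The cell-type fit used 40 sums with library as a block and also required a 2-fold difference. The sex fit used the 4 libraries labelled Tg, without a block. The scripts were tested on simulated counts, with changes put into endothelial sums and the same spread for all genes. Of 2-fold changes, the sex test called 10.4%, the sex test between types 12.8% and the cell-type test 87.8%. Of 4-fold changes, they called 97.8%, 78.0% and 100%. Alternatives were DESeq2 1.42.0, other size factors, filters, resolutions and depths, each library left out, and 2 added after seeing the data (the unnamed fibroblast-scoring cluster added, and sub-clusters led by cardiomyocyte genes removed). Genes named as alike were the 3 with the highest r among genes reaching 10 CPM. Other pathway genes were named where called higher. Intervals cover counting error only.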

Additional observations from a re-analysis of the deposited data

Results flagged for a closer look

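In 4 of the 48 screened pairs of a member and a type, 1 library stood apart from the other 4 by Dixon's ratio. Chance puts about 1 in 20 groups apart, or 5%. That figure is for independent groups, while these pairs share the same libraries. No share over all genes is set beside the count, so it does not set the members apart. Bmpr1b in smooth muscle cells was at 244 CPM in Tg female 1 and between 0 and 3.05 CPM in the other libraries. Bmpr1a in endocardial cells was at 289.8 CPM in Tg female 1, against 193 to 219 CPM. Bmpr2 was low in Tg female 2 in fibroblasts (191 CPM against 254 to 275) and in macrophages (149 CPM against 189.7 to 192.3). Tg female 2 also had the lowest median depth and the lowest summed fibroblast and macrophage markers. Their part in the Bmpr2 values was not tested.

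Among the other pathway genes, 1 of 296 tests of the sex difference between types was called. For Crim1 in cardiomyocytes it differed from that of the other types by 0.75 ± 0.14 on the log2 scale (edgeR adjusted p 0.0107). The 2 female libraries of this test include Tg female 1, whose Ccna2 level goes against its label.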

How the results depend on the processing

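The cell-type calls held in nearly all alternatives. Counts ranged from 26 to 31 higher and 18 to 23 lower, and of 650 comparisons of a call with its value under an alternative, 639 stayed past the threshold and 11 did not, 6 of them at Leiden resolution 0.5. No call reversed. The highest type was the same for all 10 genes, except that without Tg female 1 it was so for 9. The count of member sex calls, 0, moved to 4 with no filter on low counts, to 1 with DESeq2, and to between 1 and 6 with a library left out. It stayed at 0 with RLE size factors, with nuclei of at least 1000 UMIs, at resolution 0.5, with nTg female 1 added, and under both added alternatives. The count of nTg differences, 3, was 5 against the 2 libraries labelled Tg female and 2 to 6 with a library left out. The cause was not tested. The Bmpr1a level in cardiomyocytes was 599 CPM after TMM scaling, and Bmp4 in fibroblasts was 245 CPM at resolution 0.5. Depth limits Bmp2 and Bmpr1b most, with 14 and 4 UMIs in all endothelial nuclei.

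A fit with the replicate number as a block called 1 sex test, endothelial Smad6 (edgeR adjusted p 0.0341). Same-numbered libraries correlated at -0.06 to 0.12 over the 8 types, highest in endothelial cells, the type of that call. The numbers were not taken to pair the libraries.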
